A study of Mus musculus with 4 samples.

Results

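The 7 genes described here encode kinases of 3 signaling families. Akt1 and Akt2 encode AKT kinases, Mapk3 encodes ERK1, and Mapk14, Mapk11, Mapk12 and Mapk13 encode the p38 kinases alpha, beta, gamma and delta. They were taken by gene symbol, because antibodies to the phosphorylated forms of AKT, ERK and p38 were used in the same study, and all 7 were found among the 55487 genes counted. Wild-type mouse embryonic fibroblasts (MEFs), primary cells taken from embryos, were cultured for 24 h with or without 100 ng/mL of pigment epithelium-derived factor (PEDF), a secreted protein of the serpin family that had been purified from mammalian cells, and polyadenylated RNA was sequenced. The sample labels give the cells as passage 2, while the text of the study gives a later passage. Experiment 1 and experiment 2 each gave 1 control and 1 PEDF library, 4 in all, and MEFs for each experiment came from different embryos.

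AKT kinases are switched on by phosphorylation downstream of phosphoinositide 3-kinase (PI3K) and promote growth, glucose use and survival. ERK kinases stand at the end of the Ras, Raf and MEK cascade that carries growth factor signals, and p38 kinases at the end of a parallel cascade that responds to stress and cytokines and that can drive senescence in fibroblasts. All of these kinases are controlled mainly by phosphorylation of the protein, so the amount of their RNA, which was measured here, is a separate quantity from their activity.

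Sites at which these kinases are phosphorylated are shown first. They were the readout for which the genes were taken, and they show how alike the members are. For AKT only the serine to which the study's antibody was directed is shown, and other sites are left out. Each stretch is 30 bases of coding sequence in GRCm38, 5′ to 3′, from GENCODE release M21 transcripts. Capitals mark the codon of the serine in the hydrophobic motif at the end of the AKT kinases, the codons of Thr-Glu-Tyr in ERK1 and those of Thr-Gly-Tyr in the p38 kinases.
Akt1: ttcccccagttcTCCtactcagccagtggc
Akt2: ttcccccagttcTCCtactcagccagcatc
Mapk3: ggctttctgACGGAGTATgtggccacacgc
Mapk14: gatgagatgACAGGCTACgtggctaccagg
Mapk11: gaggagatgACCGGATATgtggccacacgg
Mapk12: agtgagatgACAGGATATgtggtaacccgg
Mapk13: actgagatgACGGGCTATgtggtgacccgc
The marked serine is residue 473 of the Akt1 product, encoded in exon 14 of 14 (chr12:112654707-112654736, minus strand), and residue 474 of the Akt2 product, encoded in exon 14 of 14 (chr7:27638103-27638132, plus strand). The activation loop of ERK1 is encoded in exon 4 of 9 of Mapk3 (chr7:126763449-126763478, plus strand), with the marked residues at 203 to 205. In the 4 p38 genes the loop lies in exon 7 of 12 of each gene. These stretches are at chr17:28728390-28728419 for Mapk14 and chr17:28776335-28776364 for Mapk13, both on the plus strand, and at chr15:89145854-89145883 for Mapk11 and chr15:89134664-89134693 for Mapk12, both on the minus strand. The Akt1 and Akt2 stretches were equal at 27 of 30 bases. Among the p38 genes, Mapk12 and Mapk13 were the most alike, with 25 of 30 bases equal, and Mapk11 and Mapk13 the least, with 21.

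The p38 genes lie in 2 tandem pairs. On chromosome 15, Mapk12 (89130584 to 89140703) and Mapk11 (89142486 to 89149628) are separated by 1782 bp, and on chromosome 17, Mapk14 (28691329 to 28748406) and Mapk13 (28769297 to 28780233) are separated by 20890 bp. No counted gene lay between the members of either pair. Akt2 (27591552 to 27640826) and Mapk3 (126759601 to 126765819) are both on chromosome 7, and Akt1 lies on chromosome 12 (112653821 to 112674884). No exon of another counted gene overlapped an exon of any member.
Reads that fit 2 genes equally well were left out by the authors' counting, so shared sequence can lower a count. A word of 36 bases, the shortest read kept after trimming, was looked for in all transcripts on both strands. No word was shared between any 2 members, and none of the words of Akt1, Mapk13 and Mapk14 occurred in another gene. For Akt2, 899 of 7280 words (12.3%) were also found in Akt2-ps, a processed pseudogene on chromosome 11 (16514533 to 16515981), so the count of Akt2 is uncertain to the extent that its reads fell there. Values are given in the order of experiment 1 and experiment 2 throughout. Akt2-ps had 64 and 67 counts in control and 73 and 79 in PEDF libraries, compared with 1721 to 2012 for Akt2. The shares for Mapk3, Mapk11 and Mapk12 were 1.56%, 0.570% and 2.70% of their words.

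The libraries held 14722848 to 18144640 counts, and scaling factors by edgeR's TMM method lay between 0.983 and 1.01. All 8 fibroblast markers on the list were above 1 TPM in every library. They summed to 16490 and 19850 TPM in the control libraries and to 14610 and 16640 TPM in the PEDF libraries of experiments 1 and 2. The transcripts of other cell types were present as well. Of the markers listed for each, 6 of 7 for skeletal muscle, 5 of 6 for epithelium, 5 of 6 for macrophages and 2 of 5 for endothelium were above 1 TPM in every library, and none was at 0 in all libraries. In such bulk RNA, fewer cells of a type and less RNA per cell cannot be told apart.

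Every member was expressed in MEFs, and their levels spanned 2 orders of magnitude. Levels are given as TPM (counts divided by gene length and scaled to a common total in each library), which allows genes to be compared. Akt1 was the highest, followed by Mapk3, and Mapk13 the lowest.
In control MEFs, Akt1 had 286 TPM in experiment 1 and 290 TPM in experiment 2. With PEDF it had 290 and 301 TPM. Its mean over the 4 libraries lay at the 97.9th percentile of the 19384 genes tested. Akt1 is the AKT gene expressed in most tissues. Akt2, best known for insulin signaling in fat and muscle, had 46.1 and 44.3 TPM in control and 48.3 and 45.6 TPM in PEDF libraries. Akt1 made up between 85.7% and 86.9% of the summed TPM of the 2 AKT genes in the 4 libraries.
Mapk3 had 119 and 110 TPM in the control libraries and 120 and 128 TPM in the PEDF libraries, at the 93.9th percentile. It stood between the AKT genes in every library, 2.45-fold below Akt1 and 2.59-fold above Akt2 by the means.
Among the p38 genes, Mapk14, whose product p38 alpha is the common form in most cells, was the highest in every library. It had 44.3 and 44.4 TPM in control and 40.3 and 43.5 TPM in PEDF libraries. Mapk11 (p38 beta) had 9.45 and 9.89 TPM in control and 9.16 and 11.2 TPM in PEDF libraries, a mean 4.35-fold below that of Mapk14. The other 2 forms are known for narrower tissue ranges. Mapk12 (p38 gamma), which is enriched in skeletal muscle, had 4.21 and 4.65 TPM in control and 3.62 and 4.84 TPM in PEDF libraries. Mapk13 (p38 delta) had 2.48 and 2.06 TPM in control and 2.52 and 2.15 TPM in PEDF libraries, on 40 to 45 counts per library.
The order was Akt1, Mapk3, Akt2, Mapk14, Mapk11, Mapk12 and Mapk13. Each pair of neighbours in this order was separated in all 4 libraries and did not overlap in range, except Akt2 and Mapk14. Those 2 genes had means only 1.07-fold apart, and the lowest value of Akt2 (44.33 TPM) was below the highest of Mapk14 (44.35 TPM).

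**Figure D1:**
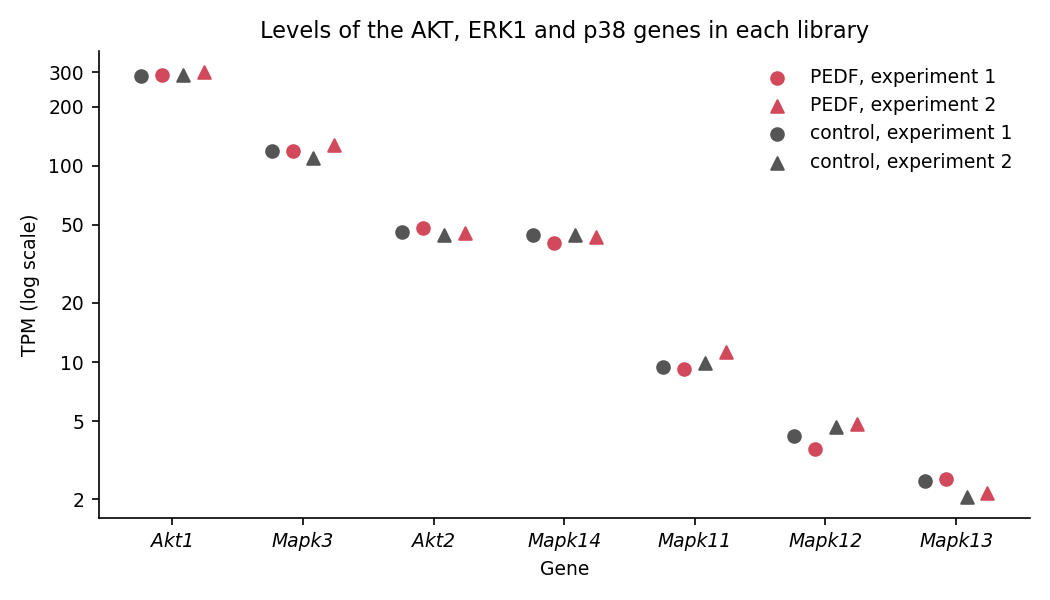
TPM on a log scale of the 7 genes in each library, ordered by mean level, with circles for experiment 1, triangles for experiment 2, grey for control and red for PEDF. Akt2 (44.33 to 48.27 TPM) and Mapk14 (40.3 to 44.35 TPM) are the only neighbours whose ranges touch.

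The makeup of the p38 family by RNA was similar in the 4 libraries. Mapk14 made up 73.3% and 72.8% of the summed TPM of the 4 p38 genes in control libraries and 72.5% and 70.5% in PEDF libraries. Mapk11 came next, with 15.6% and 16.2% in control and 16.5% and 18.1% in PEDF libraries. In both experiments the share of Mapk14 was lower and that of Mapk11 higher in the PEDF library. Shares of a common total do not move independently, and these small differences were not tested. In experiment 1 the level of Mapk11 itself was lower with PEDF (9.16 TPM) than in control (9.45 TPM), as was the summed p38 level. Mapk12 made up 6.50% to 7.84% and Mapk13 3.38% to 4.53%. The shares of the last 2 genes differed more between experiments than between treatments. The summed p38 level was 60.5 and 61.0 TPM in control libraries and 55.6 and 61.7 TPM in PEDF libraries, which overlap.

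**Figure D2:**
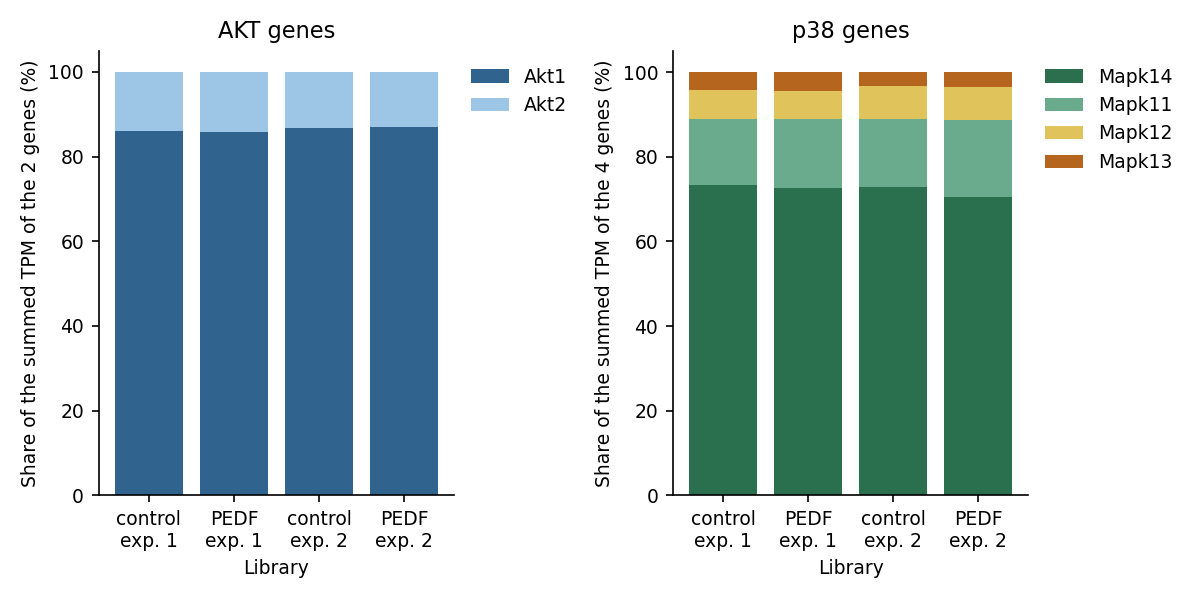
Share in percent of the summed TPM of the 2 AKT genes (left) and the 4 p38 genes (right) in each library. Akt1 takes 85.7% to 86.9% of the AKT bar and Mapk14 takes 70.5% to 73.3% of the p38 bar.

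Phosphorylated AKT, ERK and p38 were measured in the study, which reported no effect of PEDF on them in MEFs. The comparison of PEDF with control libraries here asks whether the RNA of these kinases differs. None of the 7 genes passed the test. All 7 had at least 10 counts in total and were tested. The main test, edgeR's quasi-likelihood test, had no term for the experiment. Their adjusted p-values in it (Benjamini-Hochberg, over 19384 genes) ranged from 0.758 to 0.976, and none had an unadjusted p under 0.05. DESeq2 and limma on log2(TPM + 1) also called none. Over all genes, edgeR gave an adjusted p under 0.05 for 0.00516% (1 gene, the noncoding RNA Malat1) and an unadjusted p under 0.05 for 6.88%. The log2 fold changes of the members lay between -0.06 and 0.14 with a median of 0.07, compared with a median of 0.001 over all genes tested. Libraries are compared below in CPM, which are counts scaled to the library size and the TMM factor, and SE is the standard error of a log2 fold change.
Akt1 had 416.7 and 410.4 CPM in control and 433.4 and 428.7 CPM in PEDF libraries. Both PEDF values were above both control values, with means of 431 ± 3.31 CPM with PEDF and 414 ± 4.46 CPM in control (SD, n = 2). The log2 fold change was 0.06 (SE 0.07, adjusted p = 0.886 in edgeR), with a 95% interval of 0.944- to 1.15-fold. Akt1 has the most counts of the 7, and its interval was the narrowest. Its 2 groups did not stand apart in TPM, where the higher control value and the lower PEDF value were both 290.
Akt2 had 116.6 and 109.2 CPM in control and 125.6 and 112.9 CPM in PEDF libraries, and the groups overlapped. The log2 fold change was 0.08 (SE 0.08, adjusted p = 0.868 in edgeR), with a 95% interval of 0.942- to 1.18-fold. Akt2 was higher with PEDF within each experiment, while the control library of experiment 1 exceeded the PEDF library of experiment 2.

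Mapk3, which encodes ERK1, had levels of 95.5 and 85.7 CPM in control and 98.4 and 100.6 CPM in PEDF libraries, which did not overlap. The means were 99.5 ± 1.52 CPM with PEDF and 90.6 ± 6.99 CPM in control (SD, n = 2). The log2 fold change was 0.14 (SE 0.08, adjusted p = 0.758 in edgeR), with a 95% interval of 0.980- to 1.23-fold. This log2 fold change depended on single libraries, since it was 0.06 without the control library of experiment 2 and 0.22 without that of experiment 1 (adjusted p = 0.999 and 0.335 in edgeR). Most of this difference came from experiment 2. The ratio of PEDF to control was 1.03 in experiment 1 and 1.17 in experiment 2. A fit with a block for the experiment compares libraries of the same MEF preparation. In this fit Mapk3 was the 1 member of 7 with an unadjusted p under 0.05, at 0.0158, compared with 14.6% of all genes tested, and its adjusted p in edgeR was 0.182. After a trend with gene length had also been removed, its log2 fold change was 0.08 and its adjusted p 0.670, while Akt2 then had an unadjusted p under 0.05 in edgeR (0.0366, adjusted p 0.372). No member had an adjusted p under 0.05 in either fit, compared with 3.75% of all genes with the block and 2.22% with the block and the length trend removed. At an unadjusted p under 0.05 the share of all genes in the latter was 11.7%.

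None of the 4 p38 genes passed the test, and differences among them were not tested. Mapk14 had 68.9 and 67.1 CPM in control and 64.3 and 66.2 CPM in PEDF libraries. Both PEDF values were below both control values, with means of 65.3 ± 1.34 CPM with PEDF and 68.0 ± 1.27 CPM in control (SD, n = 2). The log2 fold change of Mapk14 was -0.06 (SE 0.08, adjusted p = 0.912 in edgeR), with a 95% interval of 0.857- to 1.08-fold. Mapk11 had 9.69 and 9.87 CPM in control and 9.65 and 11.2 CPM in PEDF libraries, which overlapped, and a log2 fold change of 0.10 (SE 0.16). Mapk12 had 5.69 and 6.11 CPM in control and 5.02 and 6.40 CPM in PEDF libraries, with both control values inside the range of the PEDF values and a log2 fold change of -0.05 (SE 0.21). Fewer counts stood behind these genes than behind the others. Mapk13 had 2.78 and 2.24 CPM in control and 2.90 and 2.36 CPM in PEDF libraries, which overlapped, and a log2 fold change of 0.07 (SE 0.30). The 95% intervals were 0.846- to 1.35-fold for Mapk11, 0.715- to 1.31-fold for Mapk12 and 0.670- to 1.64-fold for Mapk13.
The groups did not overlap in CPM for 3 of the 7 genes, while the same was true of 37.3% of all genes tested. PEDF was above control for Akt1 and Mapk3 (18.9% of all genes) and below it for Mapk14 (18.4% of all genes).

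**Figure D3:**
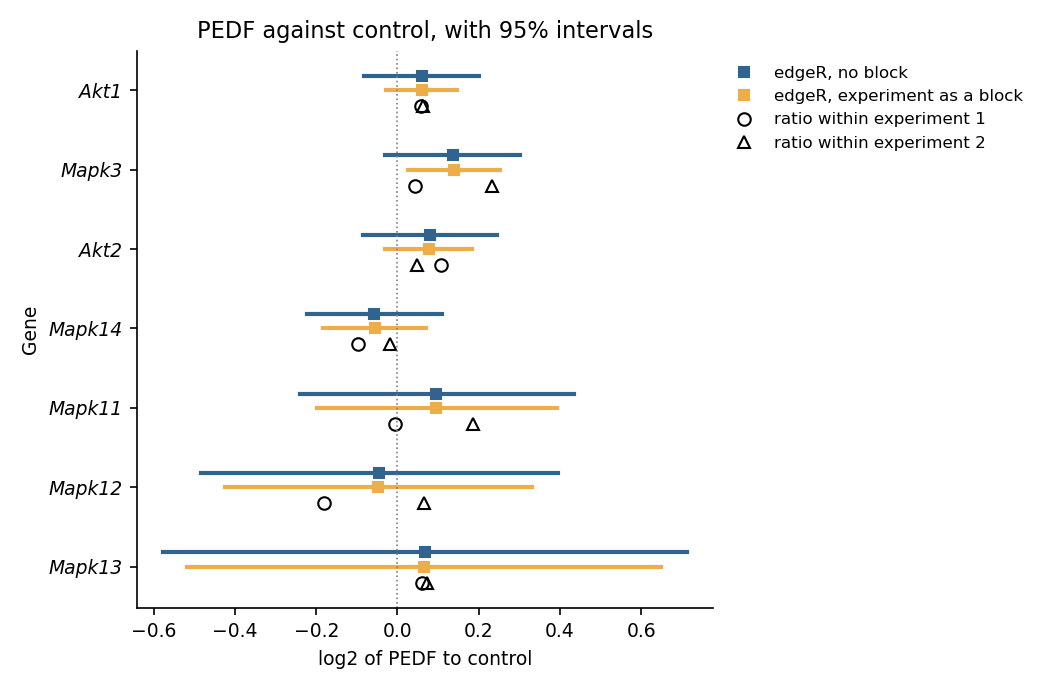
log2 of PEDF to control for each gene. Squares and lines are edgeR fits with 95% intervals, without a block (blue) and with the experiment as a block (yellow), and open symbols are the ratios within experiment 1 (circle) and experiment 2 (triangle). All intervals without a block cross 0. The narrowest is that of Akt1, and those of Mapk3, Akt2 and Mapk14 are of similar width. The widest are those of Mapk11, Mapk12 and Mapk13, which have the fewest counts.

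Within each experiment the ratio of the PEDF to the control library has no replicate, so no test was made. Its 95% interval (exact, Clopper-Pearson) covers counting error only, because variation between libraries cannot be seen with 1 library per group. PCR copies of a molecule count as separate reads, so the interval can be too narrow even for counting error. In 10 of the 14 ratios the interval held 1. The 4 others were Akt1 in experiment 1 (1.04, 1.004 to 1.08), Akt1 in experiment 2 (1.045, 1.01 to 1.08), Akt2 in experiment 1 (1.08, 1.01 to 1.15) and Mapk3 in experiment 2 (1.17, 1.10 to 1.26). Over all genes tested, the interval left out 1 for 20.1% in experiment 1 and 25.5% in experiment 2.
The ratio was above 1 in both experiments for 4 genes, which are Akt1, Akt2, Mapk3 and Mapk13. It was below 1 in both experiments for Mapk14 alone, at 0.935 and 0.988. Of all genes tested, 30.1% had a ratio above 1 and 28.8% a ratio below 1 in both experiments. The remaining 2 members went opposite ways. Mapk11 had a ratio of 0.996 (0.787 to 1.26) in experiment 1 and 1.14 (0.924 to 1.40) in experiment 2, and Mapk12 had 0.882 (0.639 to 1.21) and 1.05 (0.798 to 1.37). For both genes the intervals of the 2 experiments overlapped.
These changes were of a size common among genes of similar count. For genes with at least 1000 but under 10000 counts over the 4 libraries, such as Mapk3, Akt2 and Mapk14, the median size of the log2 fold change was 0.0827 and 90% of genes were below 0.208. For genes with at least 100 but under 1000 counts, such as Mapk11, Mapk12 and Mapk13, the values were 0.164 and 0.431. Akt1, with 27845 counts, belongs to the genes of 10000 or more, where they were 0.0696 and 0.200.

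**Figure D4:**
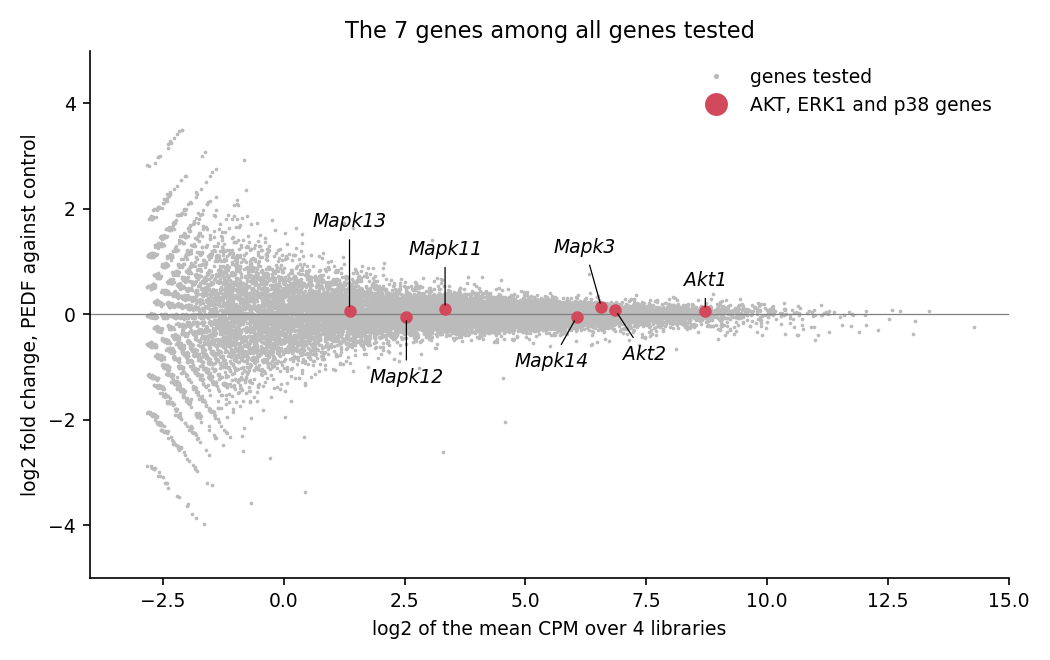
log2 fold change, PEDF against control, over log2 of the mean CPM for all genes tested (grey) and the 7 kinase genes (red). The kinase genes lie close to 0 at every level, and 14 genes lie outside the vertical range.

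The experiments differ by their MEF preparation, and the same test was made between experiment 2 and experiment 1 across treatments. None of the 7 genes passed it. In edgeR the adjusted p-values ranged from 0.732 to 0.999 and no unadjusted p was under 0.05, and DESeq2 and limma also called none. By the same test, the adjusted p was under 0.05 for 0.0567% of all genes (11 genes) and the unadjusted p for 7.67%. With the treatment as a second term, 4.49% of all genes but no member had an adjusted p under 0.05 in edgeR. Akt2 was then the 1 member with an unadjusted p under 0.05 (0.0229, log2 fold change -0.12), compared with 14.8% of all genes.
The largest differences were found for the genes with the fewest counts. Mapk13 had a log2 fold change of -0.30 (SE 0.28) and Mapk12 one of 0.23 (SE 0.20), which was 0.135 without the PEDF library of experiment 1. Both libraries of experiment 2 were above both libraries of experiment 1 for Mapk11 and Mapk12, and below them for Akt2 and Mapk13. Such a separation was found for 37.5% of all genes tested. Akt1 and Mapk14 differed little, with log2 fold changes of -0.02 (SE 0.07) and 0.001 (SE 0.08).
The summed TPM of the skeletal muscle markers moved with the experiments as Mapk12 did. It was 387.4 and 461.9 TPM in control and 424.0 and 511.2 TPM in PEDF libraries, with 6 of the 7 markers above 1 TPM and the creatine kinase gene Ckm at 1 to 9 counts. Des was an exception, with 76.9 and 72.4 TPM in control and 84.1 and 82.9 TPM in PEDF libraries, and Ckm was lower in experiment 2 in control. The rise was not particular to muscle markers. The fibroblast markers also summed higher in experiment 2, at 16490 and 19850 TPM in control and 14610 and 16640 TPM in PEDF libraries. The summed epithelial markers, which were 90.8 and 72.5 TPM in control and 86.4 and 73.9 TPM in PEDF libraries, were lower in experiment 2, as was Mapk13. Most of this difference was in Krt8, with 34.0 and 19.3 TPM in control and 32.0 and 23.1 TPM in PEDF libraries, while Krt5 was higher in experiment 2 in both treatments and Epcam in control. The macrophage markers, at 222.7 and 135.1 TPM in control and 226.4 and 189.3 TPM in PEDF libraries, were also lower there. Lyz2 was the highest of them, with 129.5 and 57.83 TPM in control and 130.4 and 100.9 TPM in PEDF libraries, and not every macrophage marker was lower in experiment 2 (Ptprc in control and Csf1r with PEDF were not). Of the epithelial and of the macrophage markers, 5 of 6 were above 1 TPM in every library. The part of these cell types in the levels of Mapk12 and Mapk13 was not tested.

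The other genes of the pathways were taken from 7 fixed lists of 93 genes, all of which were tested, with 89 of them at a mean of 1 TPM or more. Between PEDF and control none passed edgeR's test at an adjusted p under 0.05, compared with 0.00516% of all genes, and 5 of the 93 (5.38%) had an unadjusted p under 0.05, compared with 6.88%. DESeq2 and limma on log2(TPM + 1) called none either. With the block, edgeR's adjusted p was under 0.05 for 3 of the 93 genes (3.23%), compared with 3.75% of all genes tested. These were Rictor and Iqgap1, which were lower with PEDF (2.07% of all genes), and Bad, which was higher (1.67%). Between experiments, with the treatment as a second term, edgeR called 4 of the 93 genes, compared with 4.49% of all genes. All were higher in experiment 2, and they were Rictor (log2 fold change 0.24, adjusted p = 0.0227), Iqgap1 (0.244, adjusted p = 4.23e-06), Taok1 and Egfr.
Rictor encodes the subunit that defines mTORC2, the complex that phosphorylates AKT at the serine shown above. It had 9.25 and 11.1 TPM in control and 6.83 and 8.61 TPM in PEDF libraries. Both PEDF values were below both control values. In edgeR the log2 fold change was -0.37 both without the block (SE 0.10, adjusted p = 0.626) and with it (SE 0.07, adjusted p = 2.28e-05). Bad encodes a promoter of cell death that AKT inactivates by phosphorylation, and it had 38.9 and 36.7 TPM in control and 48.5 and 41.8 TPM in PEDF libraries. Both PEDF values of Bad were above both control values. In CPM, the PEDF range lay above the control range for 18.9% of all genes tested and below it for 18.4%. Rictor and Bad were named because they passed the fit with the block, so this separation is no further evidence. The log2 fold change was 0.28 (SE 0.08, adjusted p = 0.0282 in edgeR) with the block. Iqgap1, a scaffold for Raf, MEK and ERK, had 87.9 and 109 TPM in control and 75.9 and 92.6 TPM in PEDF libraries, which overlap, and a log2 fold change of -0.20 (SE 0.04, adjusted p = 4.79e-04 in edgeR) with the block. Rictor and Iqgap1 are long genes, with 16930 and 16538 bp of exons, compared with 2558 bp for Bad. When a trend with gene length was removed along with the block, Rictor had a log2 fold change of -0.26 (adjusted p = 0.0191 in edgeR), Iqgap1 -0.08 (adjusted p = 0.417) and Bad 0.22 (adjusted p = 0.162). DESeq2 with the block called only Iqgap1 of these 3 (adjusted p = 0.0205). It gave no adjusted p for Rictor (unadjusted p = 0.00611) and Bad (unadjusted p = 0.0891), because its own filter on the mean count kept 1817 of 26183 genes. Markers of cell types also moved with PEDF in edgeR with the block. The fibroblast markers Col1a1, Col1a2, Pdgfrb and Fn1 (4 of 8) were lower, and the muscle markers Des and Acta1 (2 of 7) and the macrophage marker Lyz2 (1 of 6) were higher. Of all genes tested, 2.07% were called lower and 1.67% higher in this fit. Other markers of the same lists went the other way in both experiments without being called, with Thy1 at 162.7 and 190.4 TPM in control and 180.8 and 195.2 TPM in PEDF libraries and Csf1r at 16.5 and 15.2 TPM in control and 13.9 and 14.2 TPM in PEDF libraries. Lyz2 was higher mainly in experiment 2. Without the block none of the 32 markers was called by edgeR, DESeq2 or limma. In edgeR 4 of them had an unadjusted p under 0.05, compared with 6.88% of all genes. The part of the markers in the values of Rictor, Iqgap1 and Bad was not tested.

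The lists are described here by position in the pathway, with log2 fold changes from edgeR without the block, none of which passed the test. In the 17 genes of the PI3K list upstream of AKT the median log2 fold change was -0.04. The highest levels were those of Trib3, a pseudokinase that binds AKT (118 TPM over the 4 libraries, log2 fold change -0.04), and of the PI3K regulatory subunit gene Pik3r2 (69.7 TPM, 0.08). Mapkap1, which encodes another mTORC2 subunit, had the largest value of this list, 0.09, and Rictor the smallest. In the 12 AKT substrates the median was 0.01. Akt1s1 (133 TPM, 0.10), which encodes a regulator of mTORC1, and Gsk3a (109 TPM, -0.009), a kinase that AKT inhibits, had the highest levels, and Pfkfb2 (-0.30) and Bad the smallest and largest values.
Upstream of ERK, 19 genes had a median of -0.02. The scaffold and adaptor genes Pea15a (120 TPM, 0.06) and Shc1 (108 TPM, 0.04) had the highest levels. Braf, which encodes a Raf kinase, had the smallest value (-0.22) and Lamtor3, which encodes a scaffold for MEK and ERK, the largest (0.24). For the 9 ERK substrates the median was 0.03, with Mknk2 (70.2 TPM, 0.05) and Ets2 (38.1 TPM, 0.03) at the highest levels and Elk4 (-0.18) and Rps6ka6 (0.15) as the smallest and largest values.
Upstream of p38, 13 genes had a median of -0.04. Map2k3, which encodes a direct activator of p38, was the highest (67.0 TPM, -0.01), followed by Tab2 (59.8 TPM, -0.04), an adaptor of the kinase TAK1. Map2k6, which encodes the other dedicated activator, was expressed at 3.93 TPM and had the largest value of this list (0.13), and Taok1 had the smallest (-0.16). In the 11 p38 substrates the median was 0.003. Mapkapk2, which encodes the main kinase substrate of p38 alpha, was the highest of all 93 genes (143 TPM, -0.01), and Rps6ka4 was next in its list (46.3 TPM, 0.01). Mapkapk3 (-0.17) and the transcription factor gene Mef2c (0.19) had the smallest and largest values, and Mef2c had an adjusted p of 0.0383 in edgeR with the block and the length trend removed.
The last list, 12 other MAP kinase and AKT-like kinases, had a median of 0.02, with Mapk6 (67.9 TPM, -0.12) at the smallest value. Its largest fitted value, 1.97, was that of Mapk15, which rests on 0 and 5 counts in control and 14 and 6 counts in PEDF libraries. Mapk15 was named after its values were seen.

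**Figure D5:**
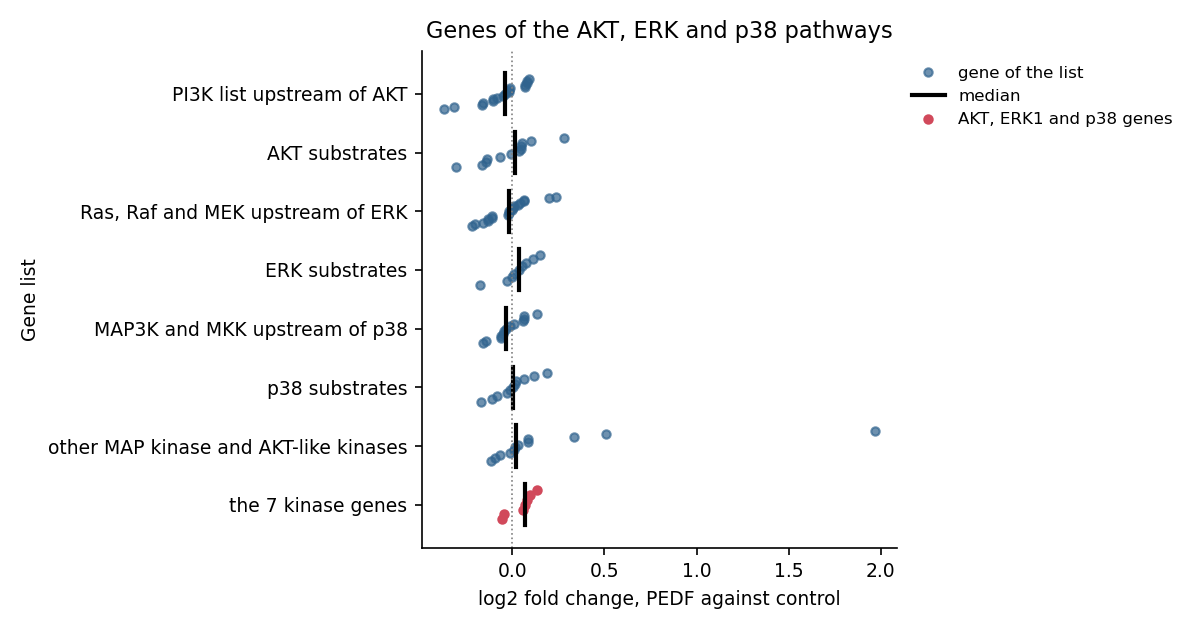
log2 fold change, PEDF against control (edgeR, no block), for each gene of the 7 pathway lists (blue) and for the 7 kinase genes (red), with a black bar at each median. The medians of the lists lie between -0.04 and 0.03, and the isolated point at 1.97 is Mapk15.

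The gene of these lists most like each member was sought by the mean absolute difference of centred log2 CPM over the 4 libraries. The closest was Rps6ka1, which encodes a kinase activated by ERK, for Akt1 (difference 0.0074). The others were Max for Mapk14 (0.0142), Egfr for Mapk12 (0.0202), Ets2 for Akt2 (0.0242), Map3k6 for Mapk11 (0.0289), Pik3r1 for Mapk3 (0.0339) and Zfp36 for Mapk13 (0.0569). With 4 libraries and 92 genes compared, genes that vary little are close by construction, and Akt1 and Mapk14 varied by only 0.0785 and 0.0977 on the log2 scale from their lowest to their highest library.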

How the data were processed

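MEFs of 2 experiments were analyzed, with 1 control and 1 PEDF library each. Per the labels and the study's methods, the authors trimmed paired reads with Trimmomatic 0.38, aligned them with HISAT2 2.1.0 (mm10), and used featureCounts 1.6.3 to count the reads that mapped uniquely. The strand setting is not given in the sources used here. The authors deposited these counts without normalization, and they also deposited TPM values, whose conversion is not described. TPM recomputed from the counts and GENCODE M21 exon lengths were 0.999 times the deposited values.

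Counts were tested in R 4.3.3 with edgeR 4.0.16 (TMM, robust quasi-likelihood test, Benjamini-Hochberg over genes of 10 or more summed counts). Each F statistic gave the standard error and 95% interval. Alternatives were DESeq2 1.42.0, RLE factors, other filters, limma 3.58.1 on log2(TPM + 1), where 1 is the pseudocount, each library left out, the experiment as a block, and the block with a spline of 5 degrees of freedom on gene length. Libraries of an experiment share embryos per the labels, and over 10722 genes their differences between experiments correlated across treatments (r = 0.423, across genes). The methods were tested on simulated data with planted changes far larger than those of the members. That test therefore does not bear on changes of the size seen for the members.

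The members and lists were chosen with earlier results of these data known. Named genes are the members, the pathway genes past the test or, since there were none, past it with the block, the 2 highest and the largest and smallest log2 fold change of each list among genes of at least 1 TPM, and the gene most like each member. In the last list, 2 genes that this rule picks are not reported here.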

Additional observations from a re-analysis of the deposited data

Results flagged for a closer look

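The ratio of PEDF to control had opposite signs in the 2 experiments for Mapk11 and for Mapk12. On the log2 scale it was -0.006 in experiment 1 and 0.186 in experiment 2 for Mapk11, and -0.182 and 0.066 for Mapk12. With 1 control and 1 PEDF library in each experiment, the difference between the experiments was not tested, and the counting intervals of both ratios held 1 for both genes.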

How the results depend on the processing

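No member had an adjusted p under 0.05 under any alternative, in either comparison, but DESeq2 with the block gave an adjusted p for only 2 of the 7. Of 84 log2 fold changes of members between PEDF and control under the alternatives, 78 kept their sign, and the 6 others arose with a library left out. Leaving out 1 library at a time gave log2 fold changes from -2.2e-05 to 0.155 for Akt2, from 0.058 to 0.216 for Mapk3, from -0.019 to 0.198 for Mapk11, from -0.235 to 0.114 for Mapk12 and from -0.087 to 0.222 for Mapk13. The sign turned without PEDF replicate 1 for Akt2, Mapk12 and Mapk13, without control replicate 2 for Mapk12 and Mapk13, and without PEDF replicate 2 for Mapk11. Between experiments, 64 of 70 kept their sign, and the ranges were -0.054 to 0.012 for Akt1, -0.182 to 0.052 for Mapk3, -0.047 to 0.051 for Mapk14, -0.177 to -0.071 for Akt2, 0.026 to 0.215 for Mapk11, 0.135 to 0.318 for Mapk12 and -0.342 to -0.267 for Mapk13. The sign turned here without PEDF replicate 1 (Akt1 and Mapk14) and control replicate 2 (these and Mapk3), while limma on log2(TPM + 1) gave 0.036 for Akt1. The number of all genes called between PEDF and control was 1, and it was 3 in DESeq2, 106 with no filter on low counts, 0 with filterByExpr (1187 at an unadjusted p under 0.05), 0 in limma on log2(TPM + 1) (964 unadjusted), and 2 to 205 with a library left out, the highest without control replicate 1. With the replicate block it was 726 in edgeR, 119 in DESeq2 and 430 with the length correction. Of the pathway lists, 3, 1 (Iqgap1) and 2 (Rictor and Mef2c) genes were then called, and 1 (Rictor) with no filter and 0 to 1 with a library left out (Rictor without control replicate 1). The block changed the call of no member. Between experiments, 11 genes were called, and 139 with no filter, 0 in limma (1376 unadjusted), 870 with the treatment as a second term, and 21 to 480 with a library left out, the highest without PEDF replicate 2. Differences in Mapk12 and Mapk13 are limited by their depth of 385 and 168 counts in all.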
